A study of Mus musculus with 28 samples.

Results

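Col5a3 and 9 other mouse collagen genes, Col1a1, Col1a2, Col3a1, Col4a1, Col4a2, Col6a1, Col6a2, Col11a1 and Col16a1, were followed through cuprizone demyelination and remyelination of the mouse brain. The 10 genes were taken by symbol, matched to their Ensembl identifiers, and make up 10 of the 44 collagen genes and of the 55414 genes in the count table. The genes were chosen by name with earlier results of these data known, and Col5a3 is treated as selected on its counts across the 4 groups, so the values of Col5a3 are given as a description without a test. A total of 28 whole-brain libraries were sequenced from the 3′ ends of transcripts (QuantSeq), 7 in each of 4 groups. The groups were TNFR1ff mice at the peak of demyelination (CPZ5), mgTNFR1KO mice in remyelination (CPZ6+1), TNFR1ff mice in remyelination (CPZ6+1) and naive TNFR1ff mice (CPZ0). Cuprizone (CPZ) is a copper chelator whose feeding kills oligodendrocytes, and myelin is remade after it is withdrawn. All groups carried the floxed gene of TNFR1, the main receptor of tumour necrosis factor, on a C57BL/6 background. The mgTNFR1KO mice also carried Cx3cr1-CreER, a tamoxifen-inducible Cre recombinase driven by the Cx3cr1 gene, which microglia and also other macrophages express, and had been given tamoxifen in a schedule called therapeutic. The labels do not state the unit of the CPZ codes, nor whether the TNFR1ff groups received tamoxifen. They speak of samples and not of separate animals, so the p-values measure the spread between these samples.

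Collagens are triple helices of 3 chains that are hydroxylated, trimmed, secreted and crosslinked into the extracellular matrix. In the brain they are largely confined to the meninges, the walls of vessels and the choroid plexus stroma, while the parenchyma between cells is built mainly of hyaluronan and proteoglycans. Fibrillar collagens (types I, III, V and XI) form fibres, type IV forms the network of basement membranes under endothelium and around the brain surface, type VI forms beaded filaments, and type XVI associates with fibril surfaces. Type V is a minor fibrillar collagen that assembles into fibres with type I, and Col5a3 encodes its α3 chain, which joins a trimer with the chains of Col5a1 and Col5a2.

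The proximal promoters of Col5a3 and of its partner chain gene Col5a1 are shown, 250 bases before the start of each gene in RefSeq (GRCm38.p6), because the Col5a3 count stood apart by stage while the groups of Col5a1 overlapped. Col5a3 lies on the minus strand (chr9:20815068-20815317) and Col5a1 on the plus strand (chr2:27886175-27886424), and both are written 5′ to 3′ along the gene. Capitals mark matches, on either strand, to the GC box GGGCGG, which Sp family factors bind, and to the CCAAT box.
Col5a3: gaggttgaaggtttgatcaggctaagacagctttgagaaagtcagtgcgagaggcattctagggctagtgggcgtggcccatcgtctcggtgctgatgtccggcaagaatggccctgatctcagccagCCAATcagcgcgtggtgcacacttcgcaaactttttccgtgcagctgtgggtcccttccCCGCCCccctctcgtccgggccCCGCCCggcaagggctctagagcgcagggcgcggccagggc
Col5a1: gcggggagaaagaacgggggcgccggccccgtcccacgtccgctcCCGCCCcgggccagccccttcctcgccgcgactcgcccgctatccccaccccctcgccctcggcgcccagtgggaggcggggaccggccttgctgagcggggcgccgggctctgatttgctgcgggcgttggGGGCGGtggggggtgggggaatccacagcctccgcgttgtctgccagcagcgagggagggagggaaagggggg
The Col5a3 promoter held 2 GC boxes, whose first bases lay 63 and 41 bases before the start, and 1 CCAAT box 122 bases before it. Col5a1 held 2 GC boxes, 205 and 73 bases before its start, and no CCAAT box in this window. Of 32851 mouse promoters of the same length, 32.7% held GGGCGG and 33.8% held CCAAT. Neither promoter held TGANTCA (AP-1 factors, in 6.75% of all promoters), TGATGNAA (the element of ATF4 with C/EBP factors, 3.45%) or GTCTAGAC (SMAD factors, 0.167%). No 2 matches overlapped in either promoter. G and C made up 62.8% of the Col5a3 and 76.4% of the Col5a1 promoter, against a median of 52.4% over all promoters. Promoters were found for 9 of the 10 genes.

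Counts summed to between 1695212 and 2417153 per library in demyelination, 1531710 and 2986501 in mgTNFR1KO remyelination, 1864544 and 3137252 in TNFR1ff remyelination and 1522919 and 2150495 in naive brain. A count of 3, taken as the floor of detection, corresponded to between 0.954 and 2.39 CPM (counts scaled to library size, with TMM factors), a bound that covers counting error only. Since a 3′ tag protocol gives about 1 read per transcript, CPM was compared between genes without a correction for length. Naive library 1 and mgTNFR1KO library 1 stood apart, with 25.54 and 1.33% of their counts in the most abundant gene. The targeted gene, Tnfrsf1a (ENSMUSG00000030341.18), measured 16.5 to 30.4 CPM in mgTNFR1KO and 15.6 to 28.8 CPM in TNFR1ff remyelination libraries (log2 fold change −0.05, SE 0.167, adjusted p = 0.961). Because other cells also express it, and reads near the 3′ end may miss the floxed segment, this level does not check the deletion. Of 12423 genes with enough counts for a test, 9 were among the 10 listed genes, and Col6a2 was too low. A gene was called changed at an adjusted p (edgeR quasi-likelihood test, Benjamini-Hochberg over all 12423 genes) under 0.05. Cx3cr1, whose gene drives the Cre, was called lower in mgTNFR1KO over TNFR1ff remyelination (log2 fold change −0.89, SE 0.183, adjusted p = 0.0365). In that comparison 0.0483% of all genes were called. Cx3cr1 was not called with library totals in place of TMM, with only the 2 groups fitted, with replicate number as a block or with summed meningeal markers as a covariate (adjusted p up to 0.323). Leaving out any 1 of many single libraries also lost the call (adjusted p up to 0.174). Among these were demyelination and naive libraries, which are not compared here. The Cre-carrying gene and the deletion cannot be told apart in this comparison.

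Col5a3 (ENSMUSG00000004098.8) was detected at a low level in all groups and was about 5-fold higher in demyelination. The demyelination libraries held 28, 21, 24, 21, 27, 30 and 38 counts of Col5a3. In mgTNFR1KO remyelination there were 9, 5, 0, 2, 7, 0 and 7 counts, and in TNFR1ff remyelination 6, 8, 3, 7, 6, 2 and 0. Naive libraries held 1, 9, 5, 7, 3, 4 and 6. Every demyelination library was above every library of the other 3 groups, and those 3 groups overlapped one another. On the CPM scale Col5a3 averaged 13.3 ± 1.54 in demyelination (lowest 11.3, median 13.0, highest 15.2), against 2.55 ± 1.3 in naive brain (0.795, 2.58 and 4.36; SD, n = 7 each). It averaged 2.03 ± 1.91 CPM in mgTNFR1KO remyelination (0, 2.45 and 5.44) and 1.95 ± 1.2 CPM in TNFR1ff remyelination (0, 1.91 and 3.73). The order of the means was thus demyelination, naive, mgTNFR1KO remyelination and TNFR1ff remyelination, and the last 3 differed by less than their SD. Many of those libraries were near the floor, so differences among them were not detectable at this depth.

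**Figure D1:**
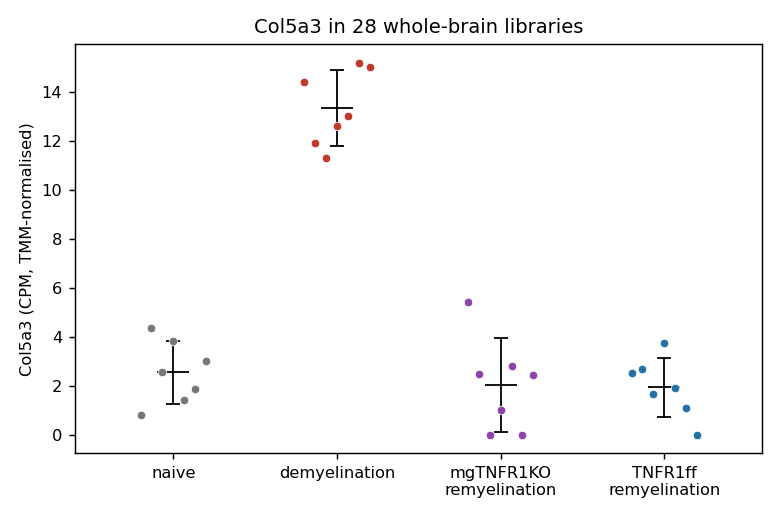
Each point is the Col5a3 level in 1 library (CPM, linear axis from 0), with 7 libraries in each of 4 groups, and the cross and bars are the mean ± SD. The 7 demyelination libraries sit between 11.3 and 15.2 CPM, above all 21 other libraries, of which the highest is at 5.44 CPM.

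The demyelination mean of Col5a3 was 5.22 times the naive mean, with a fitted log2 fold change of 2.33 (SE 0.412). For TNFR1ff remyelination over demyelination the ratio of means was 0.146 and the fitted value −2.71 (SE 0.418). Since Col5a3 is treated as selected on its counts, these values and their SE are a description and no test. TNFR1ff remyelination over naive gave −0.38 (SE 0.486, 95% interval −1.36 to 0.6), and mgTNFR1KO over TNFR1ff remyelination gave 0.03 (SE 0.5, −0.98 to 1.04). These 2 intervals each span a doubling or a halving in at least 1 direction. The 4 comparisons share libraries, since those of demyelination and of naive brain each enter 2 of them and those of TNFR1ff remyelination enter 3. For scale, 249 of the 12423 genes tested were called between demyelination and naive brain (2.0%), and 113 (0.910%) had all 7 demyelination libraries above all 7 naive ones. Between TNFR1ff remyelination and demyelination 48 genes were called (0.386%), and 21 (0.169%) had all 7 remyelination libraries below all 7 demyelination ones. Col5a3 passed the filter on low counts through the demyelination group: the level the filter requires, 4.97 CPM, was reached in 7 of 7 demyelination libraries and in 1 mgTNFR1KO library only. Leaving out any single library gave 2.22 to 2.51 for demyelination over naive and −2.9 to −2.52 for TNFR1ff remyelination over demyelination. For TNFR1ff remyelination over naive it gave −0.57 (without TNFR1ff remyelination library 4) to −0.19 (without library 7). For mgTNFR1KO over TNFR1ff remyelination it gave −0.33 (without mgTNFR1KO library 1, which held the highest count of its group) to 0.24 (without mgTNFR1KO library 3).

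In whole-brain RNA, more cells of a type and more RNA per cell cannot be told apart. Marker genes of several cell types also differed between the stages. The summed level of 10 astrocyte markers was 1850 to 2380 CPM in demyelination and 1660 to 1940 CPM in naive libraries, and 3 of the 10 rose (Vim, Serpina3n and Gfap, by 1.35, 2.92 and 1.82 on the log2 scale). In TNFR1ff remyelination the astrocyte sum was 1730 to 2000 CPM, and the same 3 genes were still called higher than in naive libraries (Vim 0.68, Serpina3n 2.19 and Gfap 1.34). The 10 microglia markers summed to 355 to 493 CPM in demyelination, 278 to 366 in mgTNFR1KO remyelination, 313 to 384 in TNFR1ff remyelination and 178 to 250 in naive libraries. Of the 10, 7 rose in demyelination over naive and 5 in TNFR1ff remyelination over naive. Leaving out 1 library gave 6 to 7 and 3 to 6. Over all genes tested, 2.0% and 0.628% were called in these 2 comparisons. All 12 mature oligodendrocyte markers fell, to a sum of 2630 to 3760 CPM in demyelination, against 6390 to 7410 CPM in naive libraries. The 18 markers of meninges and fibroblasts, the cells best known for fibrillar collagen, summed to 170 to 263 CPM in demyelination and 160 to 283 CPM in naive libraries, and the 8 of choroid plexus to 765 to 1380 CPM in demyelination (median 921) and 550 to 1020 CPM in naive libraries (median 699). The 5 red blood cell markers summed to 315 to 408 CPM in demyelination, 515 to 1160 in mgTNFR1KO remyelination, 371 to 726 in TNFR1ff remyelination and 252 to 505 CPM in naive libraries. In TNFR1ff remyelination Hba-a1 and Hba-a2, near-identical α globin genes whose counts are uncertain, rose over demyelination, by 0.91 and 0.83, and Hbb-bs, of β globin, rose over naive, by 0.65. Leaving out 1 library gave 0 to 2 red blood cell markers called in each of these comparisons. Over all genes, 0.386% were called in TNFR1ff remyelination over demyelination. Summed markers of endothelium (340 to 417 against 332 to 403 CPM), mural cells (67.7 to 101 against 72.4 to 113 CPM) and oligodendrocyte precursors (333 to 451 against 309 to 419 CPM) overlapped between demyelination and naive libraries, as did those of astrocytes, meninges, choroid plexus and red blood cells. No marker was at 0 in any group, and the part of these cell types in the Col5a3 level was not tested. With the meningeal sum as a covariate the Col5a3 value for demyelination over naive was 2.35. That sum overlapped between demyelination and naive libraries, so this value cannot show the part of meningeal cells. No sum of another cell type was used as a covariate.

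Genes whose levels followed those of Col5a3 most closely over the 28 libraries were Nupr1, C1qa, Slc14a1, Gas5 and Atf5, ranked by Pearson's r of log2 CPM. These are a stress-induced chromatin protein, a chain of the complement initiator C1q, a urea transporter of astrocytes and red cells, a long noncoding RNA and a stress-induced transcription factor. For Nupr1, r was 0.77 (Spearman's rho 0.65), with 15 ± 3.55 CPM in demyelination and 2.86 ± 1.64 CPM in naive libraries. C1qa had an r of 0.72 (rho 0.68), Slc14a1 0.72 (0.62), Gas5 0.7 (0.69) and Atf5 0.69 (0.49). All points share libraries and groups, and subtracting each group's mean lowered r for each gene. It was then 0.38 for Nupr1, 0.62 for C1qa, 0.61 for Slc14a1, 0.5 for Gas5 and 0 for Atf5. The drop was smallest for C1qa and Slc14a1 and largest for Atf5. These genes were picked for the highest r over all libraries, which includes the part within groups. In counts this low within groups such values are a description.

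None of the other 8 tested genes of the list was called in any of the 4 comparisons by edgeR. DESeq2 called none of those to which it gave an adjusted p, which in TNFR1ff remyelination over naive left out Col3a1, Col6a1, Col11a1 and Col16a1. Each DESeq2 count given here covers only genes with such a value. At an unadjusted p under 0.05 there were 2 in demyelination over naive, 1 in TNFR1ff remyelination over naive, 2 in TNFR1ff remyelination over demyelination and 1 in mgTNFR1KO over TNFR1ff remyelination, against 1649, 1294, 826 and 930 of all 12423 genes in that order. Over all genes the share called was 2.0% in the first comparison, 0.628% in the second, 0.386% in the third and 0.0483% in the last, so a count of 0 among 8 genes is near the background. The median log2 fold change of the 8 was −0.19, −0.11, −0.09 and 0.18 in the same order, against −0.01, 0, 0 and 0 over all genes tested.

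**Figure D2:**
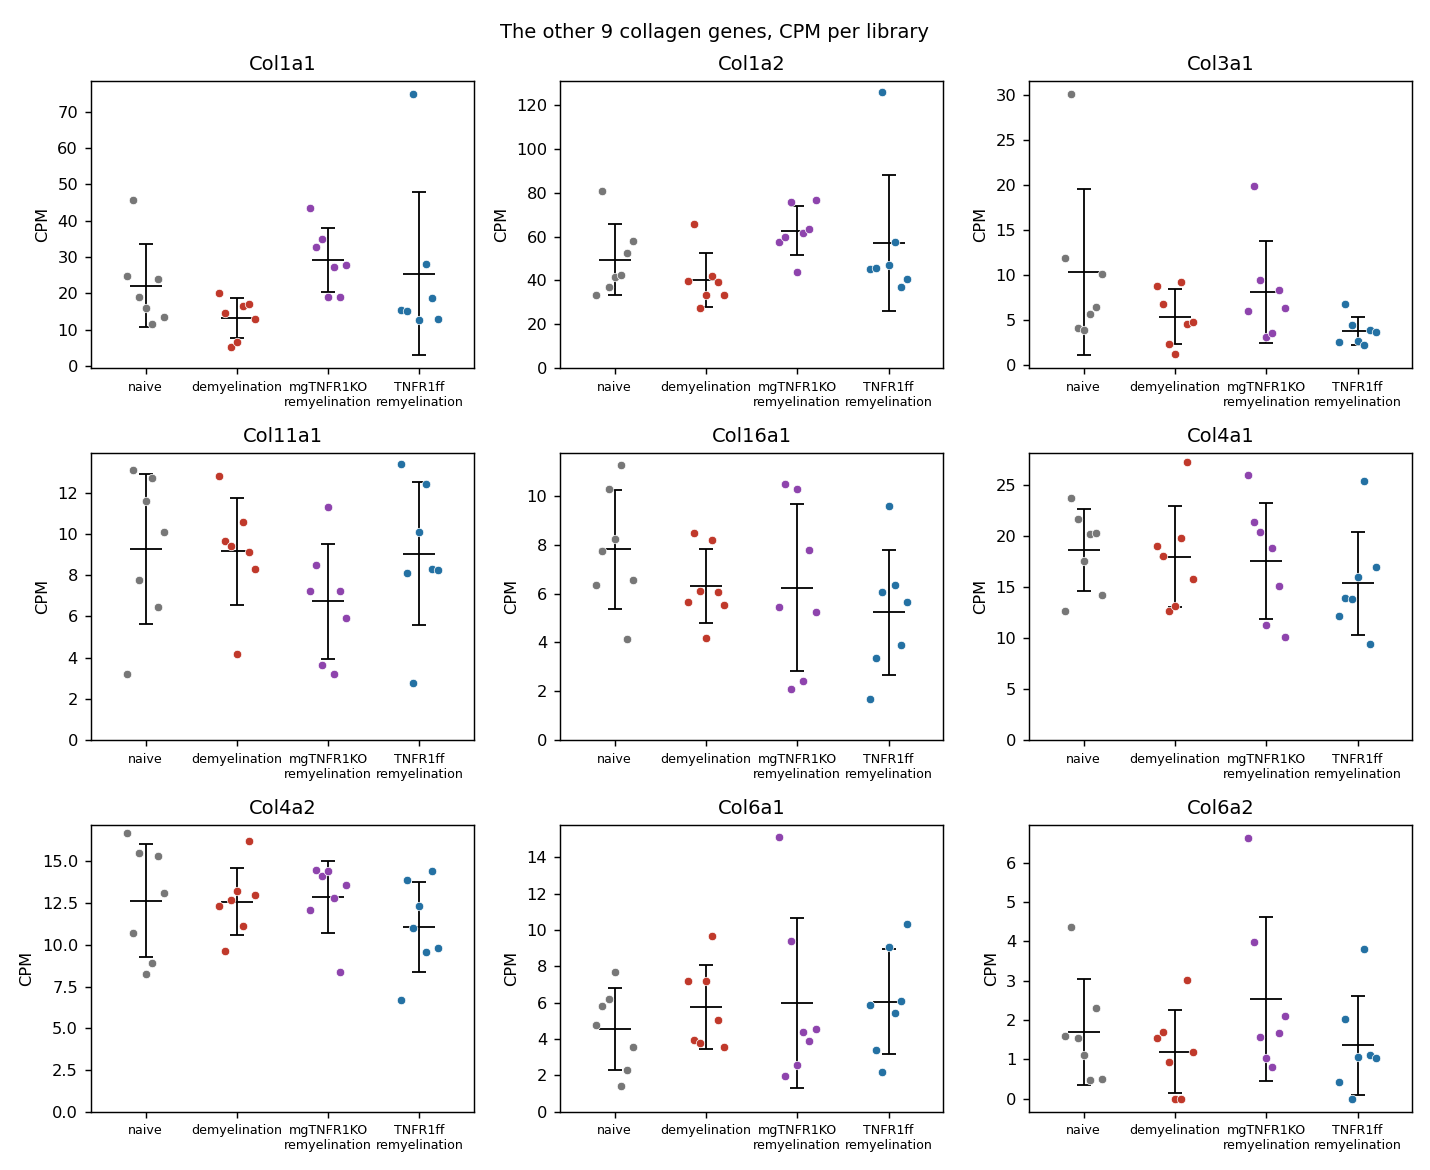
Each panel shows 1 of the other 9 listed genes (CPM per library, linear axes from 0 with a scale of their own) in 4 groups of 7 libraries, with the mean ± SD. The groups overlap in every panel, and single libraries stand above the rest of their group, among them TNFR1ff remyelination library 3 at 74.9 CPM of Col1a1 and naive library 2 at 30.1 CPM of Col3a1.

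Col1a1 and Col1a2 encode the 2 chains of type I collagen, the main fibre of the meninges. Col1a2 (ENSMUSG00000029661.17) was the most abundant of the 44 collagen genes, with 3052 counts over all libraries. Demyelination libraries held 27.3 CPM of Col1a2 at the lowest, 39.4 at the median and 65.7 at the highest, against 33.4, 42.7 and 81 CPM in naive libraries. In remyelination the same 3 values were 43.8, 61.5 and 76.5 CPM in mgTNFR1KO and 37.1, 45.6 and 126 CPM in TNFR1ff libraries. All 4 groups overlapped in Col1a2, and the value of 126 CPM came from TNFR1ff remyelination library 3.

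Col1a1 (ENSMUSG00000001506.11) had 5.17, 14.7 and 20 CPM (lowest, median and highest) in demyelination libraries, against 11.7, 19.1 and 45.6 CPM in naive libraries. It had 19, 27.9 and 43.5 CPM in mgTNFR1KO and 12.8, 15.5 and 74.9 CPM in TNFR1ff remyelination libraries. The groups again overlapped, with 2 demyelination libraries the lowest of all and TNFR1ff remyelination library 3 the highest. The log2 fold change of Col1a1 was −0.73 in demyelination over naive (SE 0.341, adjusted p = 0.339) and 0.91 in TNFR1ff remyelination over demyelination (SE 0.334, adjusted p = 0.467). For Col1a2 these were −0.32 (SE 0.216, adjusted p = 0.566) and 0.51 (SE 0.213, adjusted p = 0.624). Without TNFR1ff remyelination library 3 the values over demyelination were 0.38 for Col1a1 and 0.2 for Col1a2. Without that library TNFR1ff remyelination over naive turned to −0.35 for Col1a1 and −0.13 for Col1a2, against 0.19 and 0.18 with it. Without naive library 2, Col1a1 was −0.43 and Col1a2 −0.16 in demyelination over naive. The ratio of Col1a1 to Col1a2 counts had medians of 0.391 in demyelination, 0.442 in mgTNFR1KO remyelination, 0.343 in TNFR1ff remyelination and 0.456 in naive libraries, and its ranges overlapped.

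Col3a1 (ENSMUSG00000026043.19), the single chain of type III collagen, which forms fine fibres around vessels and in the meninges, had the smallest adjusted p of the 8 genes. TNFR1ff remyelination libraries held 2.23, 3.62 and 6.76 CPM of Col3a1 at the lowest, median and highest, against 3.85, 6.47 and 30.1 CPM in naive libraries. In mgTNFR1KO remyelination it was at 3.09, 6.29 and 19.9 CPM, and in demyelination at 1.2, 4.74 and 9.16 CPM. Single libraries set the upper ends, naive library 2 with 62 counts and mgTNFR1KO library 2 with 40. For TNFR1ff remyelination over naive the log2 fold change of Col3a1 was −1.45 (SE 0.438, adjusted p = 0.129), and −0.87 without naive library 2. Of 6 alternatives that gave a value, it passed with no filter on low counts (−1.44, adjusted p = 0.0459) and not under the others. DESeq2 was not among the 6. For demyelination over naive it was −0.93 (SE 0.425, adjusted p = 0.323), and −0.35 without naive library 2. For mgTNFR1KO over TNFR1ff remyelination it was 1.09 (SE 0.444, adjusted p = 0.591), and 0.69 without mgTNFR1KO library 2.

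**Figure D3:**
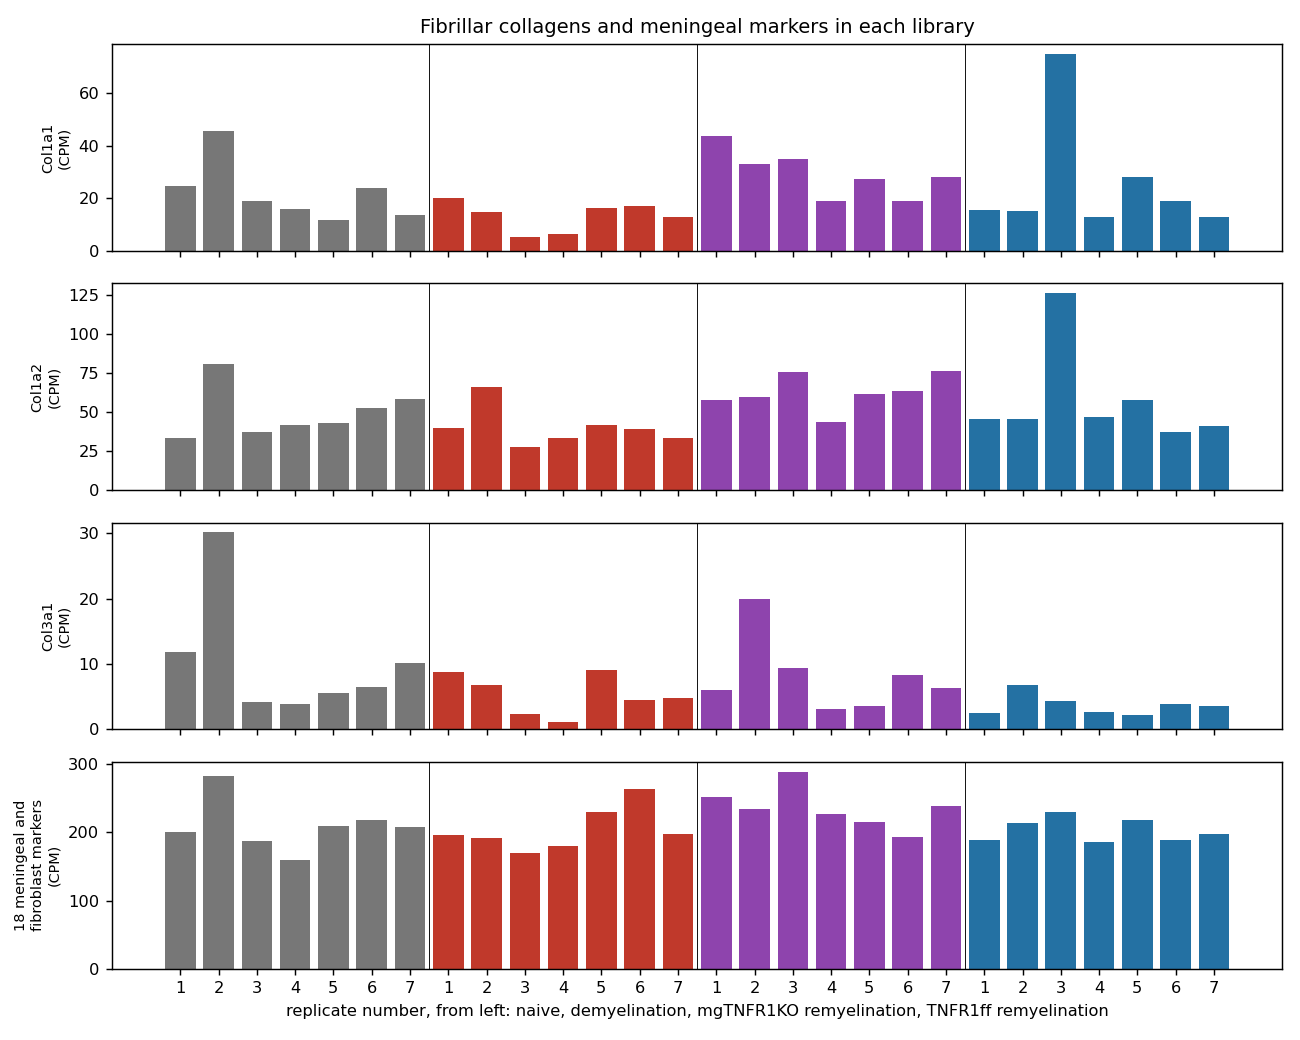
Bars give Col1a1, Col1a2, Col3a1 and the summed level of 18 meningeal and fibroblast markers (CPM, axes from 0) in each of the 28 libraries, in 4 blocks of 7 by group. Naive library 2 is high in all 4 panels, while TNFR1ff remyelination library 3 is high in Col1a1 and Col1a2 and not in Col3a1.

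Marker levels stood beside these values. Naive library 2, the highest in Col3a1, held 82.4 CPM of Dcn, a proteoglycan of fibroblasts, and 283 CPM of the 18 meningeal and fibroblast markers together, the upper end of the naive range of 160 to 283 CPM. Those markers summed to 194 to 289 CPM in mgTNFR1KO and 186 to 230 CPM in TNFR1ff remyelination libraries, and 8 choroid plexus markers to 767 to 1200 CPM and 446 to 972 CPM in the same groups. None of the 13 meningeal and fibroblast markers tested was called in any comparison by edgeR or DESeq2 (2, 2, 1 and 1 had an unadjusted p under 0.05 in demyelination over naive, TNFR1ff remyelination over naive, TNFR1ff remyelination over demyelination and mgTNFR1KO over TNFR1ff remyelination). Over all genes edgeR called 2.0%, 0.628%, 0.386% and 0.0483% in the same order, so 0 calls among 13 genes is near the background. With the meningeal sum as a covariate, mgTNFR1KO over TNFR1ff remyelination was −0.22 for Col1a1, −0.07 for Col1a2 and 0.59 for Col3a1, against 0.21, 0.14 and 1.09 without it. Without TNFR1ff remyelination library 3, and with no covariate, this comparison gave 0.74 for Col1a1 and 0.46 for Col1a2. TNFR1ff remyelination library 3 had 136 counts of Col1a1 and 229 of Col1a2 but 8 of Col3a1. It held 34.7 CPM of Dcn and 230 CPM of the 18 meningeal and fibroblast markers together, the upper end of its group's range. It also held 9 counts of Bglap, the bone protein osteocalcin, a gene chosen after its values were seen. More Bglap counts were in mgTNFR1KO library 1 (18 counts) and TNFR1ff remyelination library 5 (10 counts). Of other bone-linked genes looked at, Bglap2 had 7 counts in TNFR1ff remyelination library 3 and Sp7 had 5. Sp7 was higher in mgTNFR1KO library 1 (18 counts) and TNFR1ff remyelination library 2 (17 counts). Bglap has near-identical copies, so its counts are uncertain, and the part of tissue other than brain in these libraries was not tested.

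Col11a1 (ENSMUSG00000027966.21), a chain of the cartilage-type fibrillar collagen XI that some neurons also express, averaged 9.15 ± 2.63 CPM in demyelination, 6.73 ± 2.81 in mgTNFR1KO remyelination, 9.06 ± 3.5 in TNFR1ff remyelination and 9.26 ± 3.64 in naive libraries. For mgTNFR1KO over TNFR1ff remyelination its log2 fold change was −0.46 (SE 0.305, 95% interval −1.08 to 0.16, adjusted p = 0.749), and those of the stages lay between −0.04 and 0. Col16a1 (ENSMUSG00000040690.16), which encodes the fibril-associated type XVI chain, averaged 6.32 ± 1.53, 6.25 ± 3.43, 5.23 ± 2.55 and 7.81 ± 2.43 CPM in demyelination, mgTNFR1KO remyelination, TNFR1ff remyelination and naive libraries. Its widest value was −0.6 in TNFR1ff remyelination over naive (SE 0.339, 95% interval −1.28 to 0.09, adjusted p = 0.56).

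Col4a1 and Col4a2 encode the chains that make the main type IV collagen of vessel basement membranes. Col4a1 (ENSMUSG00000031502.12) averaged 18 ± 4.94 CPM in demyelination, 17.6 ± 5.7 in mgTNFR1KO remyelination, 15.4 ± 5.09 in TNFR1ff remyelination and 18.6 ± 4.02 in naive libraries. Col4a2 (ENSMUSG00000031503.14) averaged 12.6 ± 2.02, 12.8 ± 2.16, 11.1 ± 2.69 and 12.6 ± 3.38 CPM in the same groups. The log2 fold change in demyelination over naive was −0.06 for Col4a1 (95% interval −0.5 to 0.37) and 0.01 for Col4a2 (−0.41 to 0.42). In TNFR1ff remyelination over naive these were −0.27 (SE 0.217, adjusted p = 0.695) for Col4a1 and −0.18 (SE 0.208, adjusted p = 0.812) for Col4a2. Leaving out 1 library moved the value for Col4a1 to −0.45 (TNFR1ff remyelination library 5) and that for Col4a2 to −0.09 (TNFR1ff remyelination library 1). The counts of Col4a1 are uncertain, because its 3′ end overlaps the antisense gene Gm15418 and whether counting used the strand is not stated in the sources used here. The 2 genes lie head to head on chromosome 8 in the GENCODE M21 annotation, and the ratio of their counts had medians of 1.54 in demyelination, 1.47 in mgTNFR1KO remyelination, 1.3 in TNFR1ff remyelination and 1.4 in naive libraries.

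Col6a1 and Col6a2 encode chains of type VI collagen, a microfibril of the pericellular matrix. Col6a1 (ENSMUSG00000001119.8) averaged 5.77 ± 2.3 CPM in demyelination, 5.99 ± 4.68 in mgTNFR1KO remyelination, 6.05 ± 2.88 in TNFR1ff remyelination and 4.54 ± 2.24 in naive libraries. Its log2 fold change was 0.35 in demyelination over naive (SE 0.408, 95% interval −0.47 to 1.18, adjusted p = 0.777). Without mgTNFR1KO library 1, which held 15.1 CPM, mgTNFR1KO over TNFR1ff remyelination was −0.42, against −0.03 with it. Col6a2 (ENSMUSG00000020241.14) was not tested, with 17 counts in demyelination, 35 in mgTNFR1KO remyelination, 25 in TNFR1ff remyelination and 23 in naive libraries, summed over 7 libraries each. It averaged 1.2 ± 1.05, 2.54 ± 2.09, 1.35 ± 1.26 and 1.7 ± 1.34 CPM in these groups, near the floor of detection. The highest library was again mgTNFR1KO library 1, at 6.64 CPM of Col6a2, against a median of 1.67 CPM in its group.

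**Figure D4:**
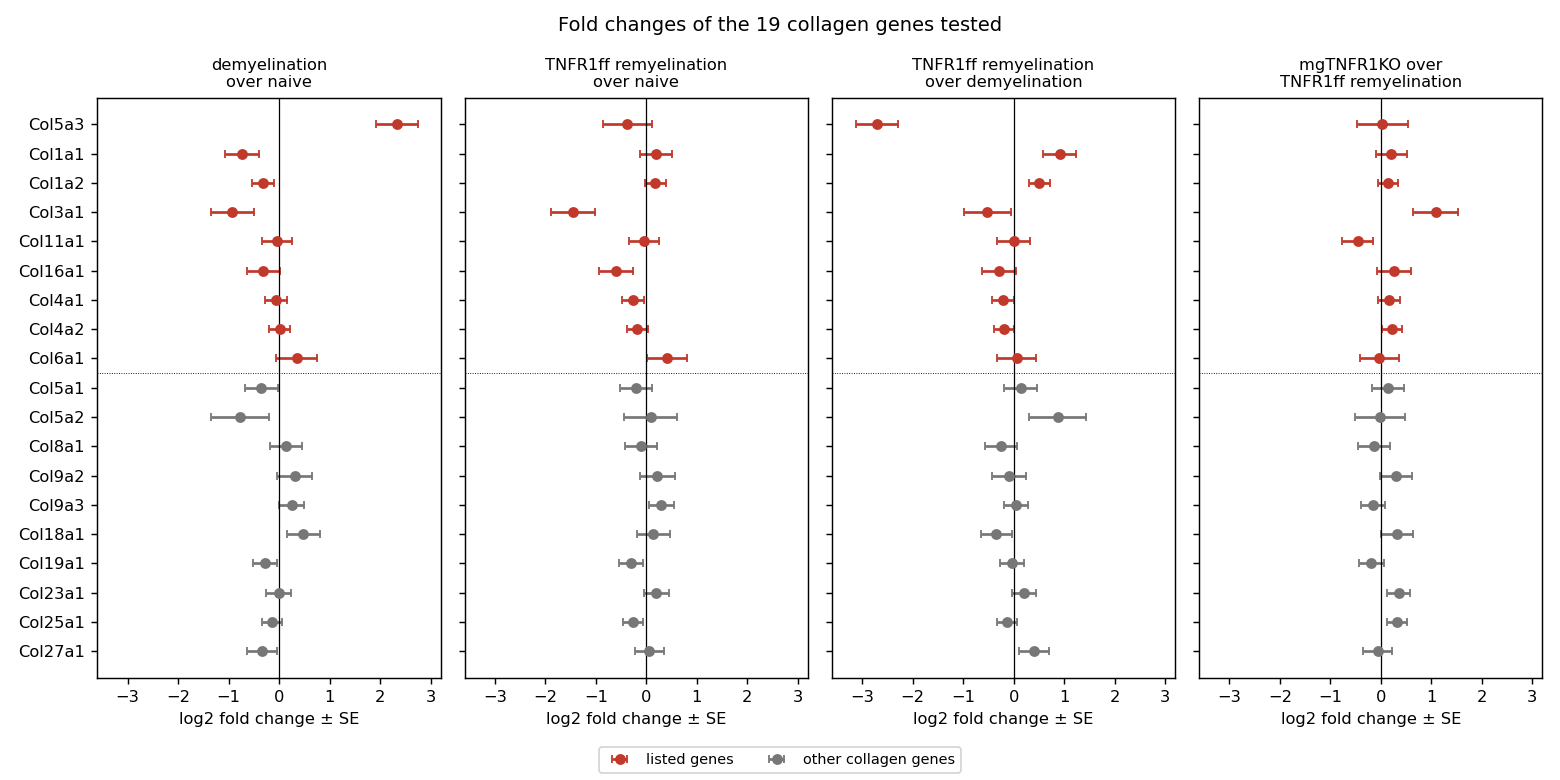
Points are log2 fold changes ± SE of the 19 collagen genes tested, in 4 comparisons, with the listed genes in red and the other collagen genes in grey below the dotted line. Col5a3 lies at 2.33 in demyelination over naive and at −2.71 in TNFR1ff remyelination over demyelination, and it is shown without a test.

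Of the other 34 collagen genes, 10 were tested, and none was called in any comparison by edgeR or DESeq2, with 0 at an unadjusted p under 0.05 in each. Their median log2 fold changes were −0.07 in demyelination over naive, 0.08 in TNFR1ff remyelination over naive, 0.01 in TNFR1ff remyelination over demyelination and 0.06 in mgTNFR1KO over TNFR1ff remyelination. Over all genes edgeR called 2.0%, 0.628%, 0.386% and 0.0483% in the same order, so 0 calls among 10 genes is near the background. An unadjusted p under 0.05 was found for 1649, 1294, 826 and 930 of all 12423 genes. The partner chain gene Col5a1 averaged 4.73 ± 2.2 CPM in demyelination, 5.75 ± 1.7 in mgTNFR1KO remyelination, 5.11 ± 1.85 in TNFR1ff remyelination and 6.02 ± 2.16 in naive libraries. Col5a2, the chain that completes the trimer, averaged 2.35 ± 1.43, 4.23 ± 3.15, 4.05 ± 3.27 and 3.86 ± 2.29 CPM in the same groups. In demyelination over naive Col5a2 gave −0.78 (SE 0.576, 95% interval −1.95 to 0.38, adjusted p = 0.608) and Col18a1, a vessel basement membrane collagen, 0.48 (SE 0.323, adjusted p = 0.566). In demyelination the Col5a3 level of 13.3 CPM thus stood above those of Col5a1 and Col5a2, and in naive brain, at 2.55 CPM, below both. Whether the fold change of Col5a3 differs from those of its partners was not tested.

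Genes that make, bind and cut collagen were described beside these, from lists chosen with earlier results of these data known. Of 21 tested genes of collagen biosynthesis and crosslinking, 1 was called, Sparc, a matricellular protein that binds collagen. It fell by 0.58 (log2) in TNFR1ff remyelination, to 164 ± 24.2 CPM, against 245 ± 56.1 CPM in demyelination (SE 0.114, adjusted p = 0.00439), a comparison in which 0.386% of all genes were called. In demyelination over naive none of the 21 was called by edgeR or DESeq2 (3 had an unadjusted p under 0.05), and 1 was without naive library 1 and mgTNFR1KO library 1 together. Over all genes 2.0% were called in that comparison by edgeR. P4hb, the β subunit of prolyl hydroxylase, had 70.8 ± 7.13 CPM in demyelination and 54.9 ± 9.03 CPM in naive libraries (adjusted p = 0.18). Serpinh1, the collagen chaperone, had 11.7 ± 5.32 CPM in mgTNFR1KO and 7.67 ± 2.69 CPM in TNFR1ff remyelination libraries (adjusted p = 0.632). The median of the list was 0.14 in demyelination over naive.

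None of 8 tested basement membrane partners was called in any comparison by edgeR or DESeq2 (0, 2, 1 and 0 had an unadjusted p under 0.05, in the order demyelination over naive, TNFR1ff remyelination over naive, TNFR1ff remyelination over demyelination, mgTNFR1KO over TNFR1ff remyelination). Among them was Nid1, which links laminin to type IV collagen, with 2.63 ± 1.41 CPM in TNFR1ff remyelination and 6.37 ± 3.06 CPM in demyelination libraries (log2 fold change −1.26, SE 0.412, adjusted p = 0.324). None of 8 collagen receptors was called by edgeR (3, 2, 0 and 1 with an unadjusted p under 0.05 in the same order), while DESeq2 called 1 in demyelination over naive and 1 in TNFR1ff remyelination over naive. In demyelination over naive edgeR called 2 receptors without demyelination library 1, and 1 without demyelination library 2, mgTNFR1KO library 1, naive library 1 or naive library 3. It also called 1 with library totals in place of TMM, with no filter on low counts, and without naive library 1 and mgTNFR1KO library 1 together. Cd44, a hyaluronan receptor that also binds collagen, had 24.7 ± 5.87 CPM in demyelination and 14.7 ± 5.64 CPM in naive libraries (log2 fold change 0.76, SE 0.22, adjusted p = 0.0615). Itga1, the α1 integrin subunit of a collagen receptor, had 18.6 ± 5.27 CPM in TNFR1ff remyelination and 28.7 ± 3.09 CPM in naive libraries (−0.63, SE 0.18, adjusted p = 0.0958). None of 12 matrix proteases and inhibitors was called by edgeR or DESeq2 (3, 1, 3 and 1 with an unadjusted p under 0.05), and without demyelination library 1 there was 1 in demyelination over naive. Over all genes edgeR called 2.0%, 0.628%, 0.386% and 0.0483% in the same order, so a count of 0 in lists of 8 or 12 genes is near the background. An unadjusted p under 0.05 was found for 1649, 1294, 826 and 930 of all 12423 genes.

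Of 19 tested genes of the TGF-beta pathway, a main inducer of collagen genes in fibroblasts, 1 was called, in TNFR1ff remyelination over naive, where 0.628% of all genes were. Itgb8, the β subunit of an integrin that activates latent TGF-beta, fell by 0.74 in TNFR1ff remyelination, to 33.6 ± 6.33 CPM, against 56.6 ± 10 CPM in naive libraries (SE 0.151, adjusted p = 0.00455). In TNFR1ff remyelination over demyelination none of the pathway was called by edgeR (1 had an unadjusted p under 0.05), and 1 was without naive library 1 and mgTNFR1KO library 1 together. Over all genes 0.386% were called in that comparison by edgeR. Of 18 brain matrix glycoproteins and proteoglycans, 3 rose in demyelination over naive, where 2.0% of all genes were called, with a list median of 0.19. Thbs4, a thrombospondin, rose by 1.34 (log2, SE 0.312, adjusted p = 0.00966) and had 10.2 ± 2.91 CPM in demyelination and 4 ± 1.61 CPM in naive libraries. Sparcl1, an astrocyte matricellular protein, rose by 0.44 (adjusted p = 0.0168) and Spp1, which encodes osteopontin, by 1.17 (adjusted p = 0.038). Without naive library 3 only 1 of these 3 was called, and Spp1 was not called by DESeq2 (adjusted p = 0.0697).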

How the data were processed

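The data were 28 whole-brain QuantSeq 3′ FWD libraries. The authors deposited RSEM gene tables, 1 per library, whose expected counts, per the file headers, are estimated reads per gene without normalisation. Per the submitters' processing notes, the tools included STAR, RSEM, cutadapt, FastQC and edgeR, and the build was GRCm39. Their settings, the annotation and the strand handling are not stated there. Per library, between 96.59 and 97.69% of the 55414 gene entries, those at 0 included, were whole within 0.005. All were rounded.

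Symbols came from a GENCODE M21 annotation (GRCm38) by identifier, which matched 52081 of 55414 genes. Genes without a symbol held 10.76% of counts. Counts were scaled by TMM, filtered by filterByExpr (minimum count 10) and tested by the edgeR quasi-likelihood method (edgeR 4.0.16, R 4.3.3) in 1 fit of all 28 libraries with a mean per group, in 4 comparisons, with Benjamini-Hochberg adjustment. The procedure was tested on simulated data. DESeq2 1.42.0 was an alternative. No 2 libraries of the same group agreed within sampling noise (84 pairs, smallest chi-square per degree of freedom 2.53). Pairs across groups were not compared. The members, lists and tests were chosen with earlier results of these data known. All 10 genes are named. Of each list the called members with the smallest p were named, at most 4, or at most 2 where none was called, and some of these are left out. The 5 genes most like Col5a3 were those with the highest Pearson's r. Alternatives covered scaling, filters, the libraries fitted, a replicate block, a meningeal covariate and leaving out libraries.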

Additional observations from a re-analysis of the deposited data

Results flagged for a closer look

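Of 40 groups of 7 libraries (10 genes in 4 groups), 7 had a library whose gap to the nearest other was, as a share of the group's range, above Dixon's 95% critical value for 7 samples. Chance exceeds that value in about 1 of 20 groups if values are normally distributed. CPM of low counts need not be, so the rate may be higher here. Groups of the same libraries are not independent of one another. In TNFR1ff remyelination, library 3 stood above the rest with 74.9 CPM of Col1a1 (next 28 CPM) and 126 CPM of Col1a2 (next 57.6 CPM). In naive brain, library 2 stood above the rest with 45.6 CPM of Col1a1 (next 24.7 CPM) and 30.1 CPM of Col3a1 (next 11.9 CPM). Demyelination library 2 held 65.7 CPM of Col1a2 (next 42 CPM), and mgTNFR1KO library 2 held 19.9 CPM of Col3a1 (next 9.39 CPM). At the low end, mgTNFR1KO library 6 held 8.37 CPM of Col4a2 (next 12.1 CPM). No group of Col5a3 libraries had such a gap.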

How the results depend on the processing

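Col5a3 kept its direction in demyelination over naive and in TNFR1ff remyelination over demyelination under all alternatives that gave a value. Among the 8 other listed genes tested, and the settings that gave each an adjusted p, the single call was Col3a1 in TNFR1ff remyelination over naive with no filter on low counts (1 gene called). Genes called over the whole table in TNFR1ff remyelination over naive numbered 132 with DESeq2, 122 with no filter and 147 with the replicate block, against 78. In TNFR1ff remyelination over demyelination DESeq2 called 73, against 48. In mgTNFR1KO over TNFR1ff remyelination DESeq2 called 13 and no filter 28, against 6. Leaving out 1 library at a time gave 172 to 329 in demyelination over naive, 57 to 154 in TNFR1ff remyelination over naive (154 without TNFR1ff remyelination library 1), 34 to 58 in TNFR1ff remyelination over demyelination and 4 to 8 in mgTNFR1KO over TNFR1ff remyelination. The cause of these shifts was not tested. Whether the replicate numbers pair the libraries was not settled. Same-numbered deviations correlated above 0.1 in 2, 0, 2 and 1 of 7 pairs in the 4 comparisons. Their mean correlations were 0.053, −0.019, 0.088 and 0.045, against −0.009, 0.003, −0.015 and −0.007 for libraries of unlike number. The block called 0 of the 8 listed genes, as edgeR did without it. With the block 1 TGF-beta pathway gene and 1 brain matrix gene were called in TNFR1ff remyelination over demyelination, against 0 and 0.

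With the meningeal marker sum as a covariate, mgTNFR1KO over TNFR1ff remyelination turned to −0.22 for Col1a1, −0.07 for Col1a2, −0.05 for Col4a1 and −0.05 for Col5a3. Directions that turned when 1 library was left out were of genes not called, or, for Col5a3, not tested: Col5a3 in mgTNFR1KO over TNFR1ff remyelination (−0.33 to 0.24), Col11a1 in demyelination over naive (−0.16 to 0.09), in TNFR1ff remyelination over naive (−0.16 to 0.11) and in TNFR1ff remyelination over demyelination (−0.13 to 0.14), Col1a1 (−0.35 to 0.48) and Col1a2 (−0.13 to 0.35) in TNFR1ff remyelination over naive, Col4a1 (−0.19 to 0.01) and Col4a2 (−0.07 to 0.08) in demyelination over naive, and Col6a1 in TNFR1ff remyelination over demyelination (−0.12 to 0.23) and in mgTNFR1KO over TNFR1ff remyelination (−0.42 to 0.15).

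Depth limits these genes: at 3 counts per library the floor lay at 0.954 to 2.39 CPM, and Col5a3 outside demyelination and Col6a2 in all groups lay near it. Fits of only TNFR1ff remyelination with naive, or only the remyelination groups, dropped Col5a3 at the filter.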
